A study of Mus musculus with 9 samples.

Results

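The genes described here encode the synaptic vesicle release machinery, the presynaptic proteins that dock, prime and fuse transmitter-filled vesicles. The set holds 39 genes, chosen by symbol for their function and not by a cutoff on these values, and all 39 were among the 15464 genes listed for the striatum and among the 14239 genes with values high enough to test. The striatum was taken from 9 male mice aged 10 to 12 weeks on a C57BL/6J background, with 1 library per mouse and 3 mice of each genotype. The groups were WT, *Shank3B* heterozygous (HET) and *Shank3B* homozygous knock-out (KO) littermates, which have 2, 1 and 0 intact alleles. *Shank3* encodes a scaffold of the postsynaptic side of excitatory synapses. The *Shank3B* allele is a germline deletion of some exons of the gene, so every cell of a HET or KO animal carries it. The paper and the sample titles name no Cre line or transgene for these mice. The question asked was which transcripts in the adult striatum differ when *Shank3* is lost in part or in full, and the comparison below asks it of genes that act on the other side of the synapse.

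At a nerve terminal, a vesicle is loaded with transmitter, held near the membrane by synapsins and Rab3, and primed at the active zone by RIM and Munc13 proteins. A SNARE complex of a vesicle protein (synaptobrevin) and membrane proteins (syntaxin and SNAP-25) then pulls the membranes together, complexin holds the complex ready, and synaptotagmin triggers fusion when calcium enters. The mRNAs of these proteins are found largely in neuronal cell bodies, so a tissue sample reports mainly on neurons whose cell bodies lie in it. In the striatum most of these are GABAergic medium spiny neurons, while the glutamatergic terminals of the striatum belong to cortical and thalamic neurons.

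The sequence upstream of the transcription start is shown for 4 members that the results below turn on or that serve as a reference. *Nsf*, *Rab3a* and *Bsn* were among the members that were highest in the same pair of libraries, and *Syn1*, a classical neuronal promoter, was not. The sequences are RefSeq promoters of build GRCm38.p6, printed 5′ to 3′ on the strand of the gene. They run from 250 bases before the RefSeq start up to that start, less any bases that lie inside the annotated gene. Capitals mark matches, on either strand, to the GC box GGGCGG, the box named for its letters CCAAT, the TATA box TATAAA, the cAMP response element TGACGTCA, the first part TTCAGCACC of the RE1 element of the repressor REST and the core CGCATGCG of the NRF1 element. None of these motifs shares bases with another in the printed sequences. *Nsf* lies at chr11:103954057-103954306 on the minus strand, *Rab3a* at chr8:70754453-70754678 on the plus strand (upstream of the first of 2 listed starts), *Bsn* at chr9:108190385-108190633 on the minus strand and *Syn1* at chrX:20921005-20921168 on the minus strand.
Nsf: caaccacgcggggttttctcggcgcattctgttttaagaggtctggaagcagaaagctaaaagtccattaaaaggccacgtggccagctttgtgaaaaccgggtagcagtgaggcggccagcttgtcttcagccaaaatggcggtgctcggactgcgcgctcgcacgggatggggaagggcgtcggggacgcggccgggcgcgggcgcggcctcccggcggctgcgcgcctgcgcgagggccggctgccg
Rab3a: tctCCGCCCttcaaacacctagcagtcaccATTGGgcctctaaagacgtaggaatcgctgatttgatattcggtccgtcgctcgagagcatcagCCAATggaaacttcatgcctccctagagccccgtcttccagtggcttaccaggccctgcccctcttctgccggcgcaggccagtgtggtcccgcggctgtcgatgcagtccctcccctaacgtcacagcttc
Bsn: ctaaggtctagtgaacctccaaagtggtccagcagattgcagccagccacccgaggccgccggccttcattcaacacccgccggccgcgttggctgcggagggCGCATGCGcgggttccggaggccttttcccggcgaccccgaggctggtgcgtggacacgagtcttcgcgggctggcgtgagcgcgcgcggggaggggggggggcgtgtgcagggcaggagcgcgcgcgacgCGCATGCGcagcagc
Syn1: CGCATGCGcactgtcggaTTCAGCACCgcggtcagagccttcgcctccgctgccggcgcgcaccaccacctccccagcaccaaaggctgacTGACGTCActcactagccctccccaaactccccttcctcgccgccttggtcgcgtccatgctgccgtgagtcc

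The *Nsf* sequence held none of these motifs, the *Rab3a* sequence held 1 GC box and 2 CCAAT boxes, *Bsn* held 2 NRF1 cores, and *Syn1* held a cAMP response element, the first part of an RE1 element and an NRF1 core. A promoter sequence was matched for 30 of the 39 members. Over the whole 250 bases, counting a gene once if any of its promoters held the motif, GGGCGG was found in 22 of the 30 members and in 35.4% of all 27025 genes (32.7% of their 32851 promoters), and CCAAT in 9 of 30 and in 37.5% (33.8%). TATAAA was found in 2 members (*Gad1* and *Sv2b*), against 14.3% of all genes (12.4%). TGACGTCA was found in *Syn1* and in 1.77% of all genes (1.55%), and TTCAGCACC in *Syn1* and in 0.348% (0.301%). CGCATGCG was found in 2 members, *Bsn* and *Syn1*, and in 1.75% of all genes (1.55%). A match describes letters in a window and is not a binding site. Whether these sequences bear on the values described below was not tested.

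Values are the authors' normalized counts per gene, that is, read estimates divided by a size factor for each library, and their sum over all genes lay between 30830020 and 33790296. The number of reads behind them is unknown. The deleted exons cannot be seen in a total per gene, so the *Shank3* total does not show the deletion itself. Its normalized count was 7209, 8812 and 6043 in WT, 7575, 7098 and 8050 in HET, and 10237, 10798 and 10578 in KO. All KO values lay above all WT values (exact two-sided permutation test, p = 0.1, the smallest p that 3 against 3 mice can give). The paper reports this rise of the total in KO, found it by qRT-PCR too, and attributes it to exons that were not targeted. The HET values lay within the WT range, so the total does not check the HET labels. HET replicate 3 and KO replicate 3 stood apart from the other libraries on the first principal component, which held 33.6% of the variance, so differences that moved most on leaving them out are also given without them. The 12 medium spiny neuron markers were all detected in every library, with a summed normalized count of 80754 to 158485 in WT, 110135 to 142537 in HET and 71887 to 118744 in KO. The 10 cortical neuron markers, such as the vesicular glutamate transporter *Slc17a7*, were detected as well and summed to 51335 to 65242 in WT, 46231 to 60115 in HET and 51079 to 70620 in KO. *Slc17a7* alone had from 26609 in HET replicate 1 to 43336 in KO replicate 3. The dissected tissue thus held transcripts of cortical neurons too, and their part in the members' values was not tested. In bulk tissue, fewer cells of a type and less RNA per cell cannot be told apart.

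Levels of different genes were compared as normalized counts per kilobase of merged exons. *Cplx2* (complexin 2) stood at 11340 ± 1574 per kilobase in WT (SD, n = 3), *Snap25* (SNAP-25) at 9853 ± 988.2 and *Vamp2* (synaptobrevin 2) at 8343 ± 1073. *Rab3a*, a small GTPase of the vesicle surface, and *Cplx1* (complexin 1) came next, with 8108 ± 806.5 and 8092 ± 942.5, and these did not differ from *Vamp2* beyond their spread. *Syp* (synaptophysin, an abundant vesicle membrane protein) and *Syt1* (synaptotagmin 1, the sensor for fast synchronous release) had 6487 ± 587.6 and 6414 ± 324.0, again within the spread of each other. At the other end of the order stood *Unc13b* (Munc13-2) with 94.07 ± 7.816, *Slc17a6* (the vesicular glutamate transporter VGLUT2) with 62.90 ± 11.15 and *Syn3* (synapsin 3) with 32.81 ± 3.578. The order depends on the length used. Per kilobase of the longest protein-coding transcript, *Snap25* led with a WT mean of 31622, before *Vamp2* with 14412, *Syp* with 13047, *Rab3a* with 11599 and *Cplx2* with 11340, and *Slc17a6* was lowest with 82.09. By either length, 9 of the 10 highest members were the same. As normalized counts not divided by length, 37 of the 39 members lay above the median of the listed genes and 6 were among the 100 genes with the highest mean.

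**Figure D1:**
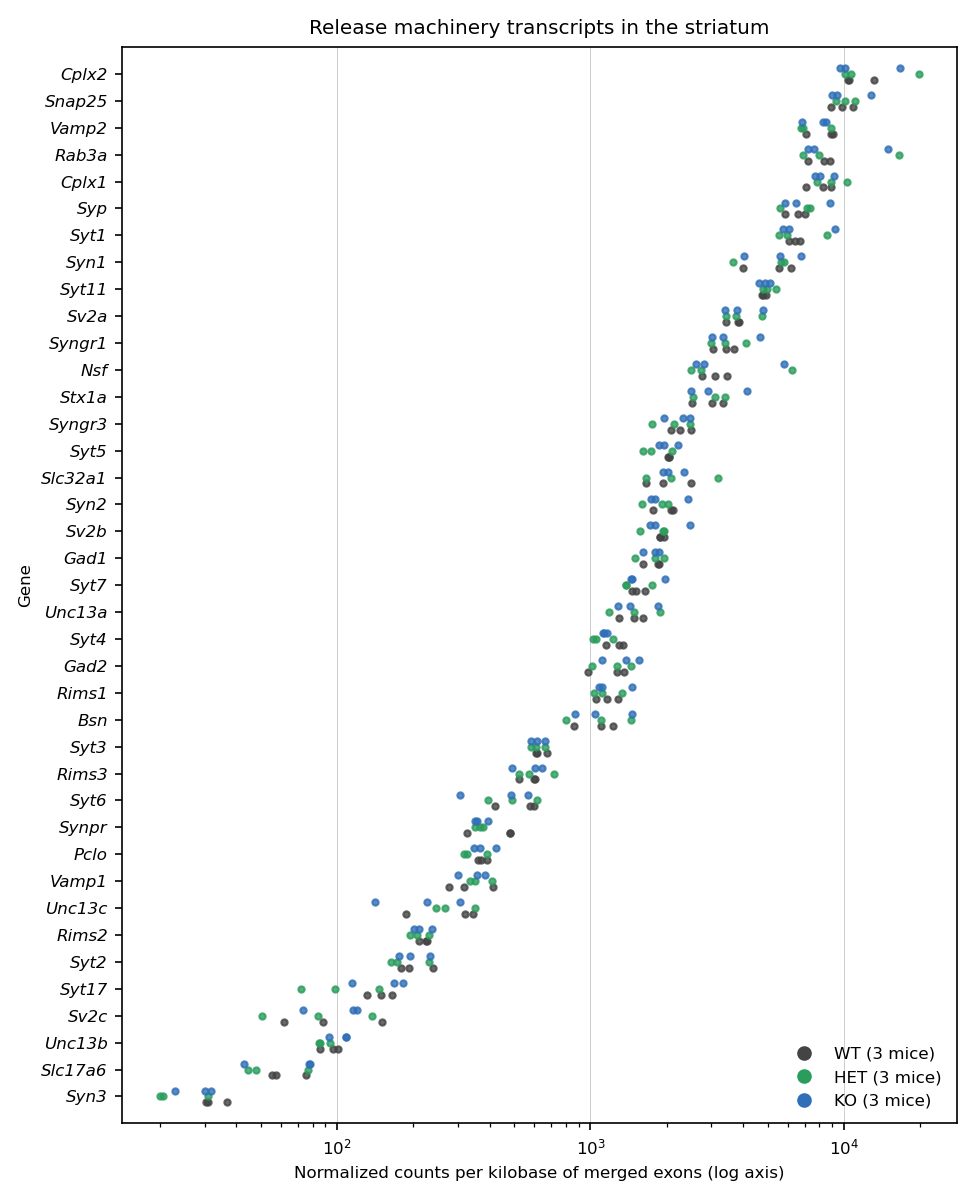
Normalized counts per kilobase of merged exons (log axis) of the 39 members, ordered by their WT mean, with 1 point per mouse colored by genotype. *Cplx2* leads with a WT mean of 11340 and *Syn3* is lowest with 32.81, and the genotypes overlap for each gene.

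Within most paralog families, 1 member led in each of the 9 libraries. *Vamp2* exceeded *Vamp1* by a median factor of 22.0 per kilobase (range over 9 libraries 16.6 to 28.2). *Syt1* exceeded *Syt2*, a close relative and also a fast sensor, by a median factor of 31.7 (24.1 to 52.8), and *Syt7*, a sensor linked to slower and asynchronous release, by 4.18 (3.98 to 4.89). *Sv2a*, the vesicle glycoprotein that binds levetiracetam, exceeded *Sv2b* by 1.97 (1.82 to 2.45) and *Sv2c* by 43.5 (22.7 to 74.3). The lead of *Syt1* over *Syt11*, a synaptotagmin that does not act as a calcium sensor, was small at 1.32 (1.16 to 1.81).

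Among the priming factors, *Unc13a* (Munc13-1) exceeded *Unc13b* by a median factor of 15.5 per kilobase (12.9 to 22.1) and *Unc13c* (Munc13-3) by 5.03 (4.24 to 13.0). *Rims1*, a scaffold that ties vesicles to calcium channels, exceeded *Rims2* by 5.4 (4.99 to 6.14). The GABA transporter of vesicles, *Slc32a1* (VGAT), exceeded *Slc17a6* by 33.8 (21.6 to 66.4). This factor does not give the balance of GABA and glutamate transporters, because *Slc17a7* of the cortical marker list is not in it. Not divided by length, *Slc17a7* had 30867, 32622 and 39130 in WT, and *Slc32a1* had 5428, 6942 and 4631. Of the GABA-synthesizing enzymes, *Gad1* (GAD67) exceeded *Gad2* (GAD65) by 1.41 (1.16 to 1.66). Factors depend on the transcript length used: with the longest protein-coding transcript in place of merged exons, the median stood at 6.39 for *Syt1* over *Syt7*, 11.2 for *Vamp2* over *Vamp1*, 2.85 for *Rims1* over *Rims2* and 3.13 for *Gad1* over *Gad2*, in the same direction.

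In the HET striatum, no member passed the adjusted threshold of 0.05. In limma with Benjamini-Hochberg adjustment, it was passed by 0 of 39 members and 0 of all 14239 genes (0.0%) against WT, and the members' adjusted p was 0.999 throughout. At an unadjusted p under 0.05, 1 member passed (*Syn3*, lower in HET), against 1.11% of all genes, and the 3 HET and 3 WT values overlapped for each of the 39 members, against 4.45% of all genes without overlap. The fold change was above 0 for 18 members and below 0 for 21, with a median log2 fold change of −0.026, against −0.0027 over all genes.

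In the KO striatum, limma with Benjamini-Hochberg adjustment called 0 of 39 members at 0.05 (0.0% of all genes), and 0 passed the unadjusted threshold (0.822% of all genes). The groups overlapped for each member, against 4.54% of all genes without overlap. The fold change was above 0 for 26 members and below 0 for 13, with a median log2 fold change of 0.044, against 0.0047 over all genes. HET and KO were compared with the same 3 WT mice, so these comparisons are not independent. The 95% interval of the log2 fold change lay within −1 to 1 for 36 members in HET and 37 in KO (92.3% and 94.9%), against 90.1% and 90.5% of all genes. It lay within −0.5 to 0.5 for 25 and 23 (64.1% and 59.0%), against 59.7% and 61.3% of all genes. A doubling or halving thus lay outside the interval for nearly all members, as for most genes, while a smaller change often did not.

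Between KO and HET, 0 of 39 members passed the adjusted threshold in limma with Benjamini-Hochberg adjustment (0.0% of all genes), 2 had an unadjusted p under 0.05 (*Syt17* and *Unc13b*, both higher in KO; 1.31% of all genes) and none had groups without overlap (4.45% of all genes). Along the number of intact *Shank3* alleles, 0 of 39 members passed the adjusted threshold for limma's slope (0.0% of all genes). None passed the unadjusted one (0.969% of all genes). The interval of the slope lay within −0.5 to 0.5 log2 units per allele for all 39, against 91.1% of all genes.

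**Figure D2:**
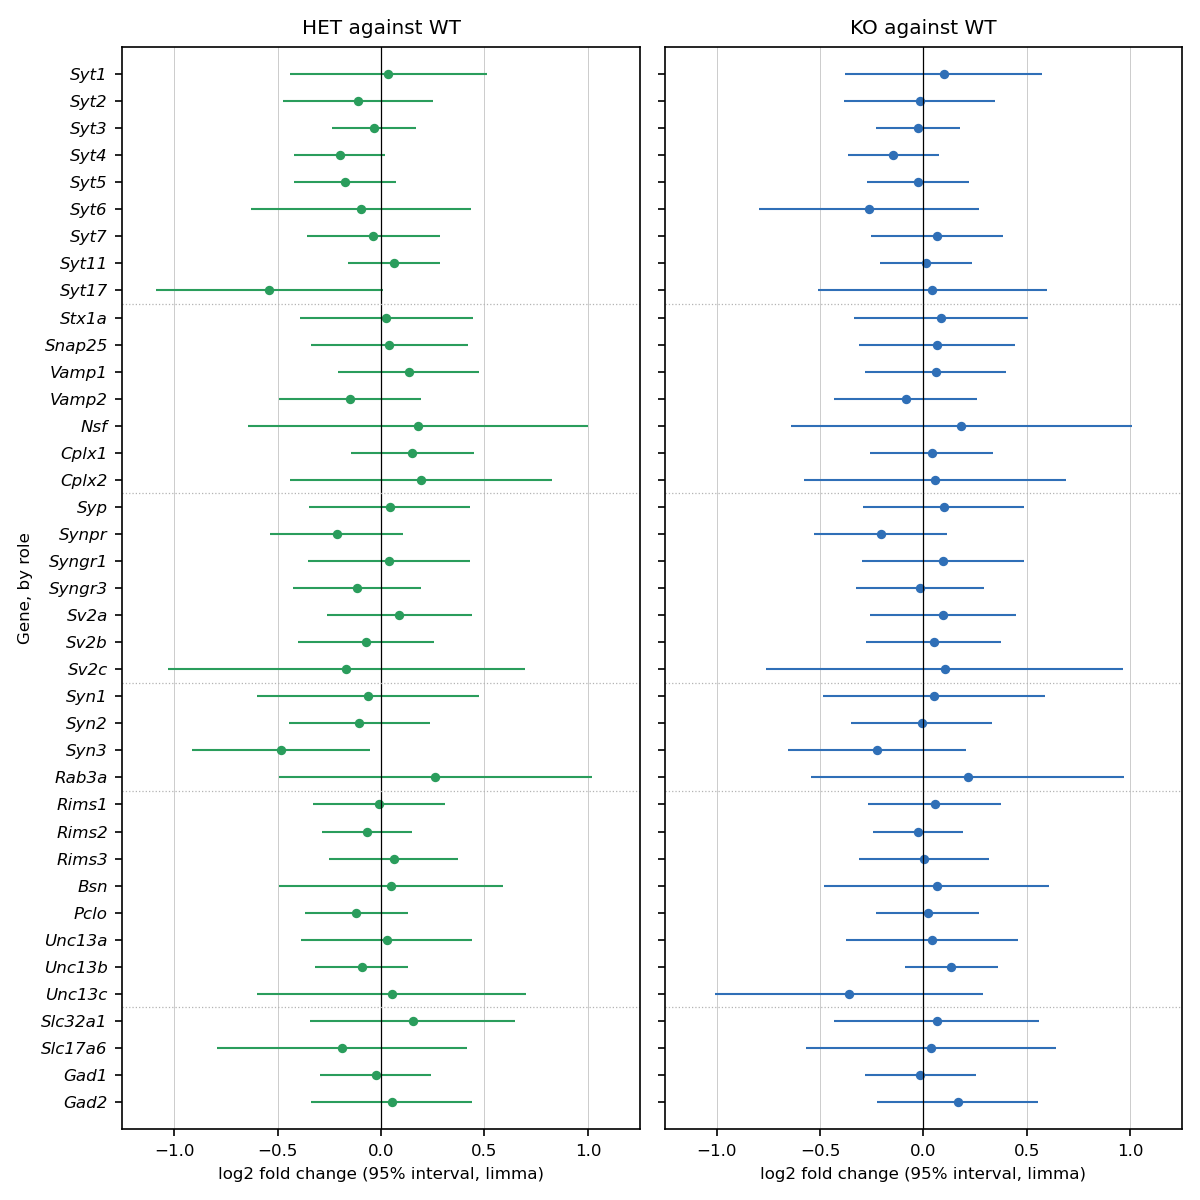
Log2 fold change (x axis) of each of the 39 members (y axis, ordered by role, with dotted lines between roles) in HET (left) and KO (right) against the same 3 WT mice, with limma's 95% interval as a bar. The points run from −0.54 for *Syt17* to 0.26 for *Rab3a* in HET, and most intervals cross 0.

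Of the 9 synaptotagmins, 0 had an unadjusted p under 0.05 in HET or in KO against WT in limma without a replicate block. The member with the smallest p in HET was *Syt17*, an atypical synaptotagmin of low level. Its normalized count was 854.4, 681.1 and 775.4 in WT, 375.1, 759.6 and 510.8 in HET, and 597.4, 871.1 and 949.7 in KO. HET replicates 1 and 3 were its lowest libraries, and HET replicate 2 lay among the WT values. Its log2 fold change was −0.54 in HET against WT (SE 0.248, adjusted p = 0.999 in limma with Benjamini-Hochberg adjustment) and 0.59 in KO against HET (95% interval 0.035 to 1.14, unadjusted p = 0.0393 in limma). In HET it passed the unadjusted threshold with the replicate number as a block (unadjusted p = 0.0375 in limma) and with WT and HET alone (unadjusted p = 0.0462 in limma). Leaving out 1 library gave −0.81 (without HET replicate 2) to −0.30 (without HET replicate 1) in HET against WT, and 0.34 (without HET replicate 1) to 0.85 (without HET replicate 2) in KO against HET.

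The main sensor *Syt1* had normalized counts of 50668, 53721 and 56056 in WT, 46213, 49815 and 71248 in HET, and 48021, 50511 and 76992 in KO. HET replicate 3 and KO replicate 3 were above all others, and the remaining HET and KO libraries were below all WT ones. *Syt4*, a dense-core vesicle synaptotagmin, had the smallest p of its group in KO, with 5238, 5042 and 4471 in WT and 4528, 4400 and 4369 in KO. The KO values overlapped with the lowest WT value, and the log2 fold change was −0.15 (95% interval −0.37 to 0.073, adjusted p = 0.999 in limma with Benjamini-Hochberg adjustment). *Syt11* and *Syt3* were the steadiest members, the highest of 9 libraries exceeding the lowest by factors of 1.17 and 1.15.

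Of the 7 SNARE genes, *Nsf* and complexins, 6 had a fold change above 0 in HET and 6 in KO, and none passed the unadjusted threshold in limma. *Vamp2* was the member below 0 in both. Its normalized count was 27077, 33765 and 34492 in WT, 25888, 33819 and 26357 in HET, and 25933, 32351 and 31386 in KO, so that each genotype held a low library. Its log2 fold change in KO was −0.087 (SE 0.154, adjusted p = 0.999 in limma with Benjamini-Hochberg adjustment), and 0.012 without KO replicate 1.

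*Cplx1*, which clamps and promotes fusion, had the smallest p of this group in HET, with 15471, 18137 and 19532 in WT, 17221, 19411 and 22481 in HET and 16881, 17659 and 19967 in KO. The HET values overlapped with WT except for HET replicate 3, and the log2 fold change was 0.15 (SE 0.134, adjusted p = 0.999 in limma with Benjamini-Hochberg adjustment). It was 0.052 without HET replicate 3, 0.058 without WT replicate 1 and 0.24 without HET replicate 1. Against HET, KO differed by −0.11 on the log2 scale (95% interval −0.41 to 0.19), and by −0.013 without HET replicate 3. *Snap25* had 60283, 66753 and 73702 in WT, 62975, 68323 and 75025 in HET, and 63757, 61201 and 87122 in KO, so that KO replicate 3 was highest and the genotypes overlapped.

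The largest differences in the group were between mice of 1 genotype. *Nsf*, the ATPase that takes spent SNARE complexes apart, had normalized counts of 22896, 28808 and 25771 in WT, 20778, 22718 and 52037 in HET, and 21827, 23472 and 48593 in KO. *Cplx2* had 51518, 64840 and 51300 in WT, 49960, 52493 and 97598 in HET, and 47523, 49638 and 81713 in KO. For both genes HET replicate 3 and KO replicate 3 were far above the rest, and the remaining HET and KO libraries lay within the WT range or below it.

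**Figure D3:**
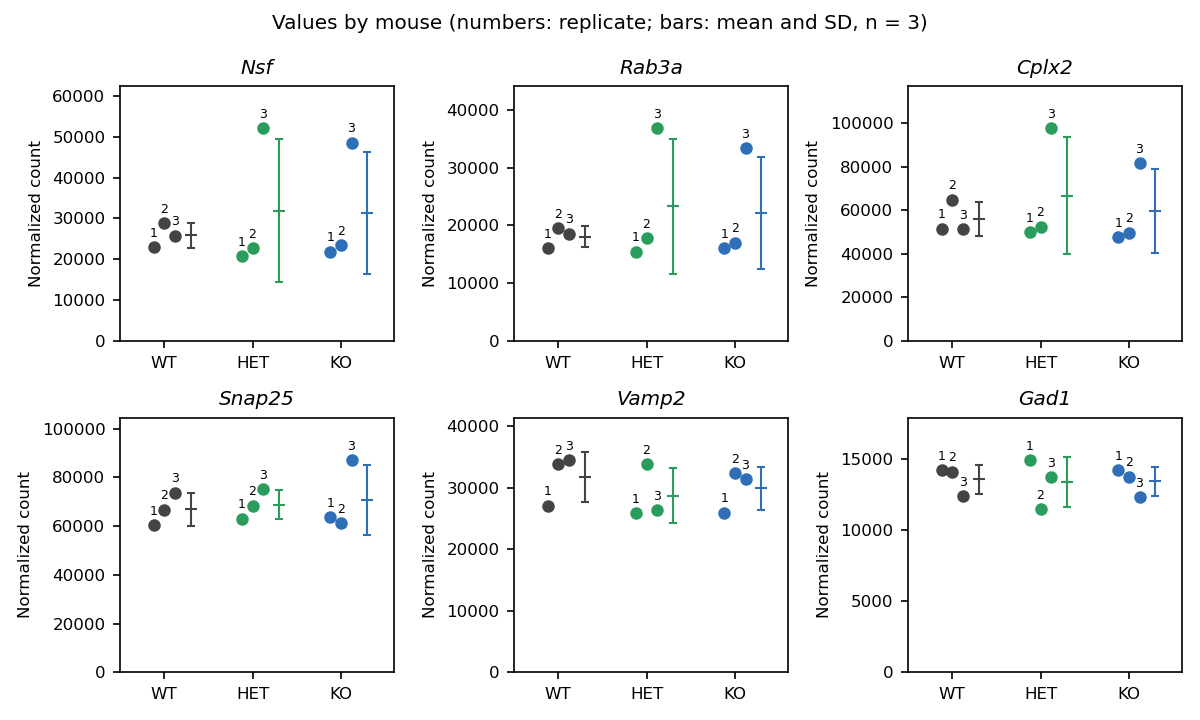
Normalized counts (y axis, from 0) of *Nsf*, *Rab3a*, *Cplx2*, *Snap25*, *Vamp2* and *Gad1* in each mouse, numbered by replicate, with the mean and SD of each genotype (n = 3) as a bar to the right. In *Nsf*, *Rab3a* and *Cplx2* the libraries HET 3 and KO 3 lie above all others, at 52037 and 48593 for *Nsf*, whereas *Gad1* stays between 11453 and 14900.

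Among the 7 vesicle membrane proteins, 0 had an unadjusted p under 0.05 in any comparison in limma. *Synpr* (synaptoporin) had the smallest p of the group in both HET and KO. Its normalized count was 4557, 4549 and 3070 in WT, 3293, 3569 and 3465 in HET, and 3303, 3373 and 3715 in KO. WT replicates 1 and 2 were above all others and WT replicate 3 was the lowest of all 9, so the groups overlapped. The log2 fold change was −0.21 in HET and −0.21 in KO (SE 0.144 for each, adjusted p = 0.999 in limma with Benjamini-Hochberg adjustment). Without WT replicate 3 they were −0.40 and −0.40 (unadjusted p = 0.00236 and 0.00266 in limma), and without WT replicate 1 they were −0.12 and −0.11. With array weights the KO difference was −0.29 (unadjusted p = 0.0427 in limma).

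*Sv2b*, a close relative of *Sv2a*, had the smallest p of the group between KO and HET, with 15764, 15815 and 16321 in WT, 13193, 16311 and 16227 in HET and 14417, 15079 and 20714 in KO. KO replicate 3 alone was high, and without it the log2 fold change of KO against HET went from 0.12 to −0.041. *Syp* had 30466, 34469 and 36481 in WT, 29181, 37275 and 38469 in HET, and 30409, 33816 and 45806 in KO, with overlap throughout. *Sv2c*, the SV2 protein known for its expression in the basal ganglia, had the widest spread of all members, from 488.8 in HET replicate 2 to 1459 in WT replicate 1, a factor of 2.99 that crossed the genotypes.

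Of the 4 tethering genes, *Syn3* was the member past an unadjusted p of 0.05 in HET against WT. It had 453.6, 374.6 and 380.8 in WT, 380.3, 252.4 and 246.6 in HET, and 370.2, 388.8 and 281.6 in KO. HET replicates 2 and 3 and KO replicate 3 were low, and HET replicate 1 lay among the WT values. Its log2 fold change was −0.48 in HET (95% interval −0.91 to −0.052, unadjusted p = 0.0314 and adjusted p = 0.999 in limma with Benjamini-Hochberg adjustment; exact two-sided permutation p = 0.2). In KO it was −0.22 (SE 0.193), and KO differed from HET by 0.26 (95% interval −0.17 to 0.69). Without KO replicate 3 the KO difference was −0.082, and the difference between KO and HET ranged from 0.15 (without HET replicate 3) to 0.46 (without HET replicate 1, unadjusted p = 0.0248 in limma). The HET difference did not pass the unadjusted threshold without HET replicate 3 (−0.37), HET replicate 2 (−0.39) or WT replicate 1 (−0.39), or with array weights (−0.37).

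*Rab3a* had normalized counts of 16056, 19541 and 18545 in WT, 15412, 17748 and 36750 in HET, and 16014, 16977 and 33346 in KO. As for *Nsf*, HET replicate 3 and KO replicate 3 were high and the rest overlapped. *Syn1* (synapsin 1) had 13170, 18333 and 20360 in WT, 12040, 18701 and 19070 in HET, and 13327, 18388 and 22258 in KO. Here the first library of each genotype was low and the genotypes overlapped throughout. *Syn2* lay between 11190 and 17132 over the 9 libraries.

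Among the 8 active zone and priming genes, *Unc13b* passed limma's unadjusted threshold between KO and HET. It had normalized counts of 2182, 1945 and 2293 in WT, 2127, 1954 and 1929 in HET, and 2474, 2107 and 2472 in KO. KO replicates 1 and 3 were above all others and KO replicate 2 lay within the HET range. KO exceeded HET by 0.23 on the log2 scale (95% interval 0.0037 to 0.45, unadjusted p = 0.047 and adjusted p = 1.0 in limma with Benjamini-Hochberg adjustment), and WT by 0.14 (95% interval −0.089 to 0.36). The difference from WT was 0.068 without WT replicate 2 and 0.21 without KO replicate 2. Between KO and HET, *Unc13b* did not pass the unadjusted threshold without HET replicate 2 or 3, KO replicate 1 or 3, or WT replicate 1 or 3, nor did *Syt17* without HET replicate 1 or 3, KO replicate 2 or 3, or WT replicate 3.

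*Bsn* (bassoon) and *Pclo* (piccolo) are giant scaffolds of the active zone. *Bsn* had 13701, 19492 and 17502 in WT, 12805, 17527 and 23052 in HET, and 13789, 16577 and 23343 in KO. *Pclo* had 8074, 8736 and 8309 in WT, 7316, 7108 and 8761 in HET, and 7811, 8202 and 9537 in KO. In each of these genes HET replicate 3 and KO replicate 3 were the highest of the 9. *Pclo* had the smallest p of the group in HET, with a log2 fold change of −0.12 (SE 0.112, adjusted p = 0.999 in limma with Benjamini-Hochberg adjustment). It was −0.064 without HET replicate 2 and −0.22 without HET replicate 3, and without both HET replicate 3 and KO replicate 3 its unadjusted p was 0.0176 in limma.

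In the cerebellar-type priming factor *Unc13c*, KO replicate 3 was the lowest library and HET replicate 3 lay within the range of the others. *Unc13c* had 3025, 2812 and 1650 in WT, 3078, 2169 and 2337 in HET, and 2676, 1987 and 1243 in KO. Its lowest libraries were KO replicate 3 and WT replicate 3, which were also those with the lowest summed medium spiny neuron markers (71887 and 80754) and the highest summed cortical markers (70620 and 65242). This pair was picked from the values of *Unc13c* itself. It was lowest for 1 of the 39 members, *Unc13c*, against 3.74% of all genes. The count therefore does not set the members apart from other genes. The synaptotagmin *Syt6* had its lowest value, 1782, in the same KO library, with 2301 in HET replicate 2 and 2446 in WT replicate 3, and 2826 to 3574 in the others. The part of the marker differences in these values was not tested.

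Of the 4 transmitter genes, 0 had an unadjusted p under 0.05 in limma in any comparison. *Gad1* had 14199, 14065 and 12353 in WT, 14900, 11453 and 13684 in HET, and 14203, 13724 and 12272 in KO, with overlap throughout. *Gad2* had 7963, 7485 and 5726 in WT, 8499, 5963 and 7491 in HET, and 8085, 9128 and 6535 in KO, and its log2 fold change in KO was 0.17 (SE 0.175, adjusted p = 0.999 in limma with Benjamini-Hochberg adjustment). Leaving out 1 library moved it between 0.023 (without WT replicate 3) and 0.30 (without KO replicate 3). The low WT value was that of WT replicate 3, whose medium spiny neuron markers summed to 80754. In KO replicate 3 these markers summed to 71887, with the higher *Gad2* value of 6535. The part of the markers in the *Gad2* values was not tested.

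*Slc32a1* had 5428, 6942 and 4631 in WT, 5810, 4637 and 8913 in HET, and 5418, 5645 and 6530 in KO. HET replicate 3 was the highest and the genotypes overlapped, with a log2 fold change in HET of 0.15 (SE 0.223), which was −0.11 without HET replicate 3. *Slc17a6* had 310.2, 299.8 and 408.8 in WT, 240.0, 414.1 and 259.2 in HET, and 231.9, 423.5 and 416.4 in KO. Each genotype spanned low and high libraries, and KO differed from HET by 0.22 on the log2 scale (95% interval −0.38 to 0.83). The 10 thalamic and septal neuron markers summed to 2296 to 3872 in WT, 2437 to 2555 in HET and 2296 to 3985 in KO, highest in KO replicate 2 and WT replicate 3. Of the other libraries with a high *Slc17a6* value, KO replicate 3 (416.4) had a marker sum of 2296 and HET replicate 2 (414.1) one of 2555. The part of these markers in the *Slc17a6* values was not tested.

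The widest pattern in the set was shared by HET replicate 3 and KO replicate 3. These libraries held the 2 highest of the 9 values for 17 of the 39 members (43.6%), against 19.2% of all genes tested, and the 2 lowest for 0 members, against 16.4% of all genes. By role, these were 3 of 9 synaptotagmins (*Syt1*, *Syt7* and *Syt11*), 5 of 7 SNARE, ATPase and complexin genes (*Stx1a*, *Snap25*, *Nsf*, *Cplx1* and *Cplx2*), 3 of 7 vesicle membrane genes (*Syp*, *Syngr1* and *Sv2a*), 1 of 4 tethering genes (*Rab3a*), 5 of 8 active zone genes (*Rims1*, *Rims2*, *Bsn*, *Pclo* and *Unc13a*) and 0 of 4 transmitter genes. In size the pattern was uneven. *Nsf* stood at 2.27 and 2.12 times the median of the other 7 libraries in HET and KO replicate 3, *Rab3a* at 2.16 and 1.96 and *Cplx2* at 1.9 and 1.59, and no other member exceeded 1.5 in both. *Vamp2*, whose product binds SNAP-25 directly, stood at 0.815 and 0.97.

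**Figure D4:**
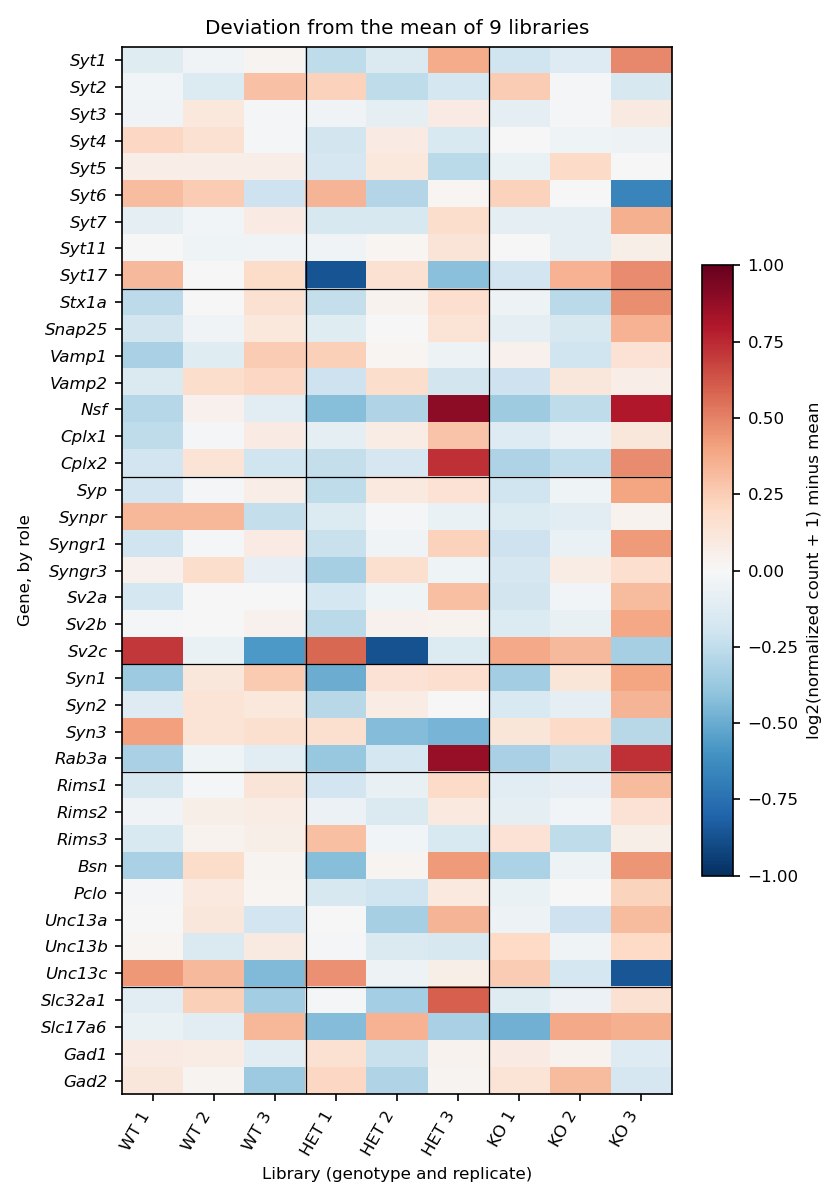
Deviation of log2(normalized count + 1) from the gene's mean over 9 libraries (color, log2 units) for the 39 members (rows, by role, with lines between roles) in each library (columns, by genotype). The columns of HET 3 and KO 3 are red over most SNARE and active zone rows, deepest for *Nsf*, *Rab3a* and *Cplx2*, while *Unc13c* and *Syt6* are blue in KO 3.

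As a whole the members' median deviation from the mean of the 9 libraries, on the log2 scale, was −0.066, 0.034 and 0.040 in WT, −0.16, −0.042 and 0.085 in HET, and −0.10, −0.050 and 0.197 in KO. The KO group thus held both a low and the highest value, and the first library of each genotype was its lowest. Over all genes tested the same median stayed within −0.0053 and 0.0024. The members took 1.602% to 1.789% of the summed normalized counts in the other libraries and 2.054% and 2.14% in HET replicate 3 and KO replicate 3.

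The direction of the set in KO turned without KO replicate 3 and without WT replicate 1. Without KO replicate 3, the fold change of KO against WT was above 0 for 5 members and below 0 for 34, with a median log2 fold change of −0.082, against 26 and 13 and a median of 0.044 with it. Without WT replicate 1 that median was −0.016. Without HET replicate 3, HET against WT had 6 members above 0 and 33 below, with a median of −0.11, while the median was above 0 without HET replicate 1 (0.014), HET replicate 2 (0.020) or WT replicate 2 (0.0025). Without KO replicate 3 the slope per intact allele was above 0 for 32 members and below 0 for 7, against 13 and 26 with it. The adjusted count of members stayed at 0 in each of these fits in limma. Without HET replicate 3 or KO replicate 3 the count over all genes was 0 too.

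**Figure D5:**
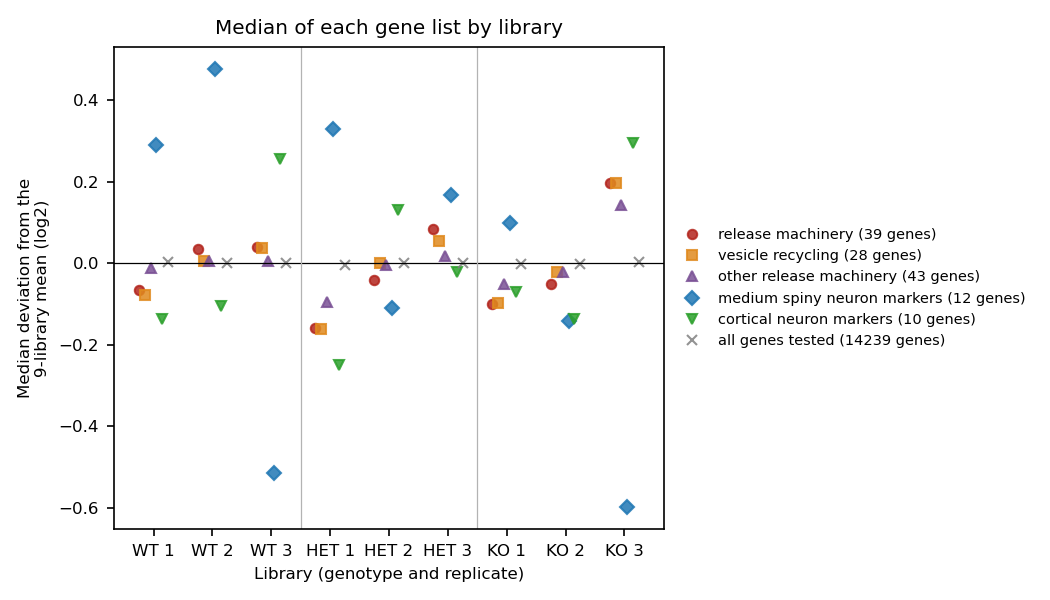
Median deviation from the 9-library mean (y axis, log2 units) of each gene list in each library (x axis), with 1 marker shape and color per list. The release machinery is highest in KO 3 at 0.197 and lowest in HET 1 at −0.16, the vesicle recycling genes lie close to it in every library, and the medium spiny neuron markers are lowest in KO 3 and WT 3.

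Other genes of the pathway were taken from lists drawn up by function. Of 45 further release genes (Munc18, SNAP, liprin, CAPS, synuclein and transporter genes among them), 43 were tested, and 0 passed the adjusted or the unadjusted threshold in limma in HET, in KO or between them. Their median log2 fold change was −0.041 in HET and 0.047 in KO. Of 28 genes of vesicle recycling (dynamin, clathrin, adaptor and proton pump genes), all 28 were tested and 0 passed either threshold in limma, with a median log2 fold change of 0.0015 in HET and 0.017 in KO. By library the recycling genes had a median deviation of 0.055 in HET replicate 3 and 0.198 in KO replicate 3, beside 0.085 and 0.197 for the members.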

How the data were processed

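Striatal poly(A) RNA of 9 mice was sequenced as stranded paired-end libraries. The authors estimated transcript abundance with Salmon 0.9.1 (GRCm38, GC-bias option), imported gene totals through tximport into R 3.6.0 and divided them by DESeq2 1.19.11 size factors. The deposited signal is the resulting normalized counts. Whole reads could not be recovered from them, so the depth is unknown, no counting interval is given, and the count test was not used. Columns were matched to samples by name and 0 were left unused.

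The members, their roles and all gene lists were chosen with earlier results of these data known. Values were transformed as log2(normalized count + 1), which understates the change of low genes. Genes with at least 10 in at least 3 libraries were fitted with limma 3.58.1 (R 4.3.3, trend in the variance prior) over the 9 libraries, without covariate, and adjusted by the Benjamini-Hochberg method over all 14239 genes (threshold 0.05). Two-sided exact permutation tests, with a smallest p of 0.1, were added for single genes. A fold change is given for the member with the smallest p of each of 6 roles in each comparison and for each member with an unadjusted p under 0.05. Lengths and gene spans are those of a GENCODE annotation of GRCm38. To check for pairing, deviations from the genotype means were correlated between libraries that share a replicate number. For HET with KO the correlations were 0.515, 0.281 and 0.506. They were 0.243, −0.221 and 0.0244 for WT with KO, and 0.319, −0.0142 and 0.00538 for WT with HET. Deviations from a genotype mean cancel out over its libraries, so a shared outlying pair also raises the correlations of the other numbers. Correlations between libraries of unlike number were not computed. The check therefore cannot tell pairing by number from the likeness of HET replicate 3 and KO replicate 3. No source used here says what the numbers stand for. Alternatives were other filters, pseudocounts, scalings, variance priors, array weights, a replicate block, lengths, and leaving out libraries.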

Additional observations from a re-analysis of the deposited data

How the results depend on the processing

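The count of 0 members past the adjusted threshold held in all 3 pairwise comparisons and the slope under each alternative run. In the main fit 0 of all 14239 genes passed it as well, so this count says nothing particular about the members. The paper tested the same mice with DESeq2 and an empirical null for the p-values. At the same adjusted threshold it called genes in HET and in KO, *Shank3* in KO among them. The count of 0 over all genes is thus that of limma on these values, and not of every test. The number of members with an unadjusted p under 0.05 in limma moved, and so did the count over all genes. Without HET replicate 3 the latter went from 158 to 122 in HET against WT and from 186 to 288 in KO against HET. Without KO replicate 3 the count over all genes went from 117 to 136 in KO against WT and from 138 to 157 for the slope. Counts over all genes are not given for most of the fits below, so these moves are not a result about the members. Leaving out 1 library gave 0 to 3 members in HET against WT, 0 to 2 in KO against WT, 0 to 2 in KO against HET and 0 to 2 for the slope. In HET against WT it was 3 without HET replicate 2 or WT replicate 3, 2 without KO replicate 1, and 0 without HET replicate 3 or WT replicate 1. In KO against HET it was 1 without KO replicate 2 or WT replicate 1, and 0 without HET replicate 3, KO replicate 3 or WT replicate 3. In KO against WT and for the slope it was 2 without WT replicate 3. With array weights the counts were 0, 1, 0 and 1, and with the compared genotypes alone 2 in HET against WT and 0 in KO against HET. KO against HET also gave 0 without a trend, 1 with quantile normalization and 0 without HET replicate 3 and KO replicate 3. With the replicate number as a block, HET against WT gave 2 members (*Syn3* and *Syt17*) and KO against HET 3, and the block changed no other call on the differences named.

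The log2 fold change of *Slc32a1* in HET changed sign with array weights (−0.063), without HET replicate 3 and KO replicate 3 (−0.11) and over the range of −0.11 to 0.37 when 1 library was left out. *Slc17a6* between KO and HET was −0.0084 without this pair and 0.073 to 0.51 when 1 library was left out. Leaving out 1 library gave −0.041 to 0.22 for *Sv2b* between KO and HET and −0.20 to 0.012 for *Vamp2* in KO. With array weights the members' median log2 fold change in KO was −0.050.

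With the longest protein-coding transcript as the length, the median ratios per kilobase were 49.4 for *Syt1* over *Syt2*, 2.19 for *Syt1* over *Syt11*, 6.39 for *Syt1* over *Syt7*, 11.2 for *Vamp2* over *Vamp1*, 8.48 for *Snap25* over *Stx1a*, 1.39 for *Sv2a* over *Sv2b*, 13.0 for *Syp* over *Synpr*, 1.54 for *Syn1* over *Syn2*, 60.1 for *Syn1* over *Syn3*, 39.8 for *Syn2* over *Syn3*, 2.85 for *Rims1* over *Rims2*, 1.51 for *Rims3* over *Rims2*, 12.4 for *Unc13a* over *Unc13b*, 1.86 for *Unc13c* over *Unc13b* and 3.13 for *Gad1* over *Gad2*. The depth is unknown, and the limit on each comparison is the spread between 3 mice: the members' median residual SD was 0.216 on the log2 scale, against 0.192 over all genes.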

Other observations

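HET replicate 3 and KO replicate 3 were the 2 highest libraries for 9 of the 43 other release genes, close to the share of 19.2% over all genes tested, and for 10 of the 28 vesicle recycling genes. They were the 2 lowest for 4 and 2 of these genes, against 16.4% of all genes tested. Genes singled out here were chosen after their values were seen. *Dnm1* (dynamin 1, which cuts endocytic vesicles from the membrane) had normalized counts of 67874 and 72028 in these libraries and at most 45914 in the other 7, and *Ap2m1*, a subunit of the clathrin adaptor AP-2, had 38919 and 36434 against at most 23033. The summed normalized count of the oligodendrocyte markers was 142693 in KO replicate 3, the lowest of the 9. It was 255122 in HET replicate 3, within the range of 164926 to 272779 of the others. The part of cell types in the pattern of these libraries was not tested.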
